A study of Mus musculus with 6 samples.

Results

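The genes Pdgfra, Pdgfrb, Cd34, Ly6a, Dpp4, Pi16, Cd24a, Icam1, Dlk1 and F3, which encode surface markers of adipocyte progenitors, were examined in mouse inguinal white fat (iWAT), a depot under the skin. They were taken by their symbols, and all 10 were among the 16538 genes of the deposited RNA-Seq table. The tissue came from cold-acclimated mice of 2 genotypes, with 3 samples per genotype and RNA pooled from 2 mice in each sample. Control mice carried a floxed Nrg4 gene without Cre (fl/fl, labelled wt), and NRG4-AKO mice (AKO) carried the same floxed gene with Adiponectin-Cre, which is active in mature adipocytes. All mice were fed chow and were housed at 8°C. The labels give 10 days of cold. A longer time in the cold is given in the study's text. No group was kept warm, so the values compare genotypes in the cold. Each sample had 17570335 to 18373707 reads on the listed genes. The values are normalized counts, which are the read counts divided by a scaling factor of the sample and not by gene length, and whole reads were recovered from them. Nrg4, which encodes the secreted EGF family ligand neuregulin 4, had 3128, 3102 and 3092 normalized counts in control samples 1 to 3 and 2577, 2627 and 2691 in AKO samples 1 to 3, over all exons together (log2 fold change -0.24, limma adjusted p = 0.298). Every AKO value was below every control value. By qPCR, the study found almost no Nrg4 mRNA in AKO iWAT. A single count per gene does not separate the floxed part of Nrg4 from its other exons.

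White fat is renewed from fibroblast-like progenitors that lie in the connective tissue of the depot and around its vessels. They are recognized by PDGF receptors, CD34 and SCA-1 (the product of Ly6a) on their surface. Cells with DPP4 and PI16 lie in the interstitial tissue and are regarded as an early state, cells with ICAM1 as committed preadipocytes, and cells with F3 (CD142) as a population that restrains adipocyte formation. None of these markers belongs to progenitors alone. CD34 and SCA-1 are also found on endothelial cells, PDGFRB on mural cells, ICAM1 on endothelial and immune cells, and CD24 on epithelial cells and lymphocytes, and all of these share the tissue that was sequenced.

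Higher values in AKO than in control iWAT were found for 8 of the 10 markers, with Dpp4, Cd34 and Pdgfra above the control range in every AKO sample. No marker passed the test across all genes (limma on log2(normalized count + 1), Benjamini-Hochberg adjusted p under 0.05, called from here on). That test covered the 13855 genes whose mean was 10 or more normalized counts, all 10 markers included, and called 0.0144% of genes, 0.00722% higher and 0.00722% lower in AKO. At an unadjusted p under 0.05, Pdgfra, Cd34 and Dpp4 were higher in AKO and no marker was lower, beside 9.1% of all genes in either direction and 4.41% higher. The groups did not overlap for these same 3 markers, with AKO above, beside 6.14% of all genes with AKO above, 8.31% with AKO below and 14.5% in either direction. Positive log2 fold changes were given by 51.9% of all genes. The median log2 fold change was 0.32 over the markers and 0.0070 over all genes tested. In tissue RNA, more cells of a type and more RNA per cell cannot be told apart.

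**Figure D1:**
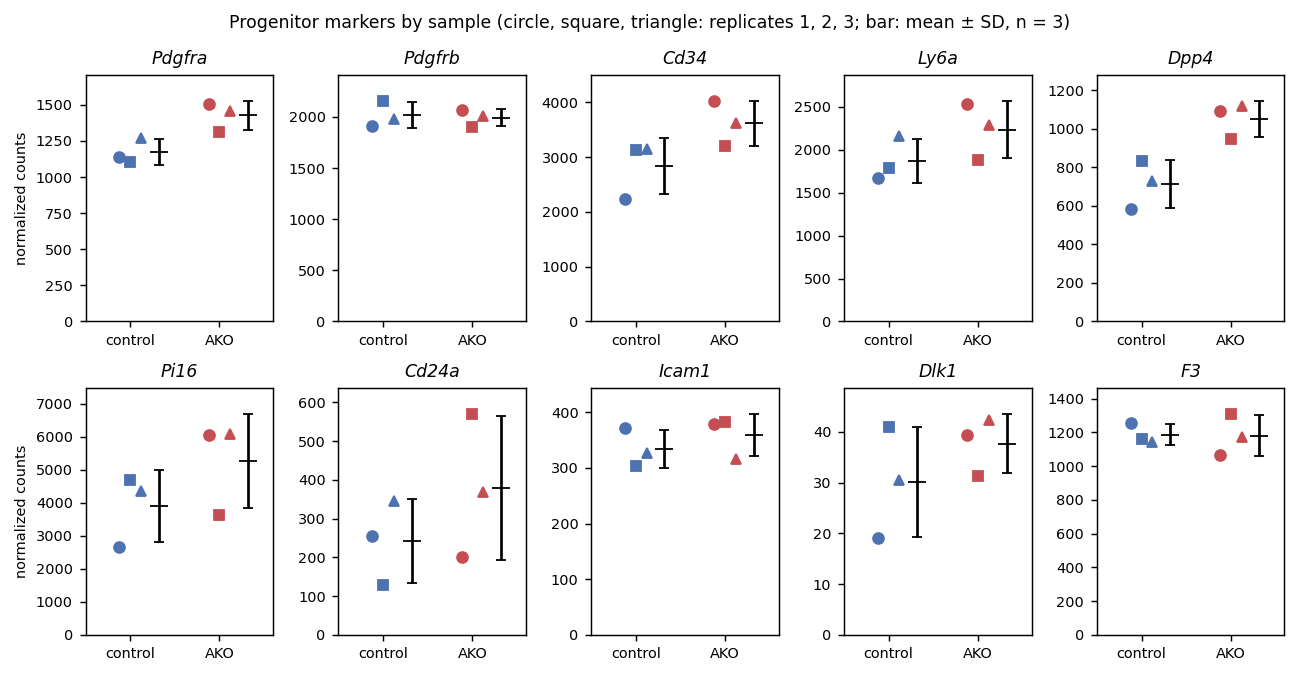
Normalized counts (y axis, from 0) of the 10 progenitor markers in control (blue) and AKO (red) iWAT, with replicates 1, 2 and 3 as circle, square and triangle and the mean ± SD of 3 samples as a bar. All 3 AKO samples lie above all 3 control samples for Pdgfra, Cd34 and Dpp4, and the groups overlap for the other 7 genes.

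Of the PDGF receptors, Pdgfra had higher values in every AKO sample and Pdgfrb had overlapping groups, and the difference between these effects was not tested. Pdgfra (chr5:75152292-75198215, plus strand, GRCm38) encodes the receptor that marks nearly all adipocyte progenitors and fibroblasts. In control iWAT it had 1139, 1107 and 1273 normalized counts and in AKO iWAT 1508, 1314 and 1458, so that the lowest AKO sample was above the highest control sample. The mean was 1173 ± 88.1 (SD, n = 3) in control and 1426.5 ± 100.5 (n = 3) in AKO iWAT, 21.6% higher. On the log2 scale the difference was 0.28 with a standard error of 0.08 (95% interval 0.09 to 0.47), and it did not pass the test (limma adjusted p = 0.414). The exact permutation test gave p = 0.1, the smallest value that 3 samples against 3 allow.

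Pdgfrb (chr18:61045150-61085061, plus strand) encodes the receptor shared by progenitors close to vessels and by pericytes and smooth muscle. Its values were 1915, 2156 and 1982 normalized counts in control and 2068.5, 1904 and 2008 in AKO iWAT. The groups overlapped, and both extremes, the highest in control sample 2 and the lowest in AKO sample 2, lay close to the rest. Means were 2018 ± 125 and 1993.5 ± 83.3 (SD, n = 3 each), and the log2 fold change was -0.02 (95% interval -0.17 to 0.14, limma adjusted p = 0.970). A difference within that interval could not be told from 0 with 3 samples per group.

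Cd34 (chr1:194938819-194961279, plus strand) encodes a sialomucin of progenitors that also lines small vessels. The control samples had 2244, 3127 and 3143 normalized counts and the AKO samples 4019, 3198 and 3624. Control sample 1 stood below the other control samples, and AKO sample 2 was only just above the highest control sample. From 2838 ± 515 in control, the mean went to 3614 ± 410.4 in AKO iWAT (SD, n = 3 each), 27.3% higher, with a log2 fold change of 0.36 and a standard error of 0.14 (95% interval 0.03 to 0.69). Neither limma (adjusted p = 0.522) nor DESeq2 on the recovered reads (adjusted p = 0.297) called it. Without control sample 1 the log2 fold change was 0.20, and its unadjusted p was above 0.05 when control sample 1, AKO sample 1 or AKO sample 3 was left out. Of 8 endothelial markers, 7 had lower and 1 higher values in AKO, with a median log2 fold change of -0.09 and summed levels of 20727 to 22952 normalized counts in control and 19086 to 21763 in AKO samples.

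Ly6a (chr15:74994877-74998031, minus strand) encodes SCA-1, a GPI-anchored protein by which mouse fat progenitors are commonly sorted. It had 1669.8, 1784 and 2160.2 normalized counts in control and 2537, 1878 and 2290.7 in AKO iWAT. AKO samples 1 and 3 were above every control sample, whereas AKO sample 2 lay between control samples 2 and 3. The means of 1871 ± 257 and 2235 ± 333 (SD, n = 3 each) differed by 0.25 on the log2 scale (standard error 0.13, 95% interval -0.05 to 0.56, limma adjusted p = 0.608). Ly6a has close relatives in the genome, and 91 of the 906 stretches of 50 bases in its longest transcript (10.04%) also occur in transcripts of other genes such as Ly6c1 and Ly6c2. Reads from such stretches could be lost or assigned to a relative. The relatives themselves had log2 fold changes of 0.07 (Ly6c1) and -0.01 (Ly6c2).

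Dpp4 (chr2:62330073-62412231, minus strand) encodes a surface peptidase that cleaves the ends of peptides such as incretins and chemokines, and it defines the interstitial progenitor. Its values were 583, 832 and 727 normalized counts in control and 1089.9, 944 and 1117 in AKO iWAT. The groups did not overlap, and the gap between the groups, from 832 to 944, was wider than for Cd34 or Pdgfra. The mean was 714 ± 125 in control and 1050.5 ± 93.2 in AKO iWAT (SD, n = 3 each), 47.1% higher. Among the markers whose groups did not overlap this was the largest difference, with a log2 fold change of 0.57 and a standard error of 0.13 (95% interval 0.26 to 0.87). It did not pass the test in limma (adjusted p = 0.315) or in edgeR on the recovered reads (adjusted p = 0.302), which called 0.0216% of genes. DESeq2 on the recovered reads called it (adjusted p = 0.00844), the only marker of the 10 that it called, while calling 0.998% of genes and 0.241% higher in AKO. Over 16 other settings of the analysis the adjusted p of Dpp4 ranged from 0.00844 to 0.714 and was under 0.05 with DESeq2 alone.

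Pi16 (chr17:29317680-29330593, plus strand) encodes a surface protein of the peptidase inhibitor family and marks the same interstitial cells. It had 2650.3, 4694 and 4354 normalized counts in control and 6066, 3618 and 6101 in AKO iWAT. AKO samples 1 and 3 were far above the control samples, AKO sample 2 was below control samples 2 and 3, and control sample 1 was the lowest of all. With means of 3899 ± 1095 and 5262 ± 1423 (SD, n = 3 each), the difference of 0.44 on the log2 scale had a standard error of 0.26 (95% interval -0.17 to 1.04, limma adjusted p = 0.671). Leaving out a single sample gave values from 0.18, without control sample 1, to 0.68, without AKO sample 2.

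The sequences just upstream of Dpp4, Pdgfra and Cd34 are shown because these are the markers whose groups did not overlap. They are the 250 bases before the gene start in RefSeq (GRCm38.p6), written 5′ to 3′ on the strand of the gene, and 7 of the 10 markers had an entry. They lie at chr2:62412232-62412481 on the minus strand for Dpp4, at chr5:75152001-75152250 on the plus strand for Pdgfra and at chr1:194938571-194938820 on the plus strand for Cd34. Capitals mark the matches to 4 motifs searched on both strands, which were the GC box GGGCGG, the TATA box TATAAA, the EBF motif (TCCC and GGGA, 2 bases apart) and the C/EBP motif TTGCNNAA.
Dpp4: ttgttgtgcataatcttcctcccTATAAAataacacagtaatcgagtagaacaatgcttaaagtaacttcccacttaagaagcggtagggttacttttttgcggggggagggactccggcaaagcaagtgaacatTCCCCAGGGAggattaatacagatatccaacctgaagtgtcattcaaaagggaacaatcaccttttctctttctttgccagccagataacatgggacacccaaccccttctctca
Pdgfra: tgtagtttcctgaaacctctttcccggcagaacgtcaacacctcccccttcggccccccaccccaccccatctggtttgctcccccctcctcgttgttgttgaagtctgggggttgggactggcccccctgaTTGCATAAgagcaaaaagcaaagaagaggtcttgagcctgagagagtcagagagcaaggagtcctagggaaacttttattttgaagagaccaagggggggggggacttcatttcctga
Cd34: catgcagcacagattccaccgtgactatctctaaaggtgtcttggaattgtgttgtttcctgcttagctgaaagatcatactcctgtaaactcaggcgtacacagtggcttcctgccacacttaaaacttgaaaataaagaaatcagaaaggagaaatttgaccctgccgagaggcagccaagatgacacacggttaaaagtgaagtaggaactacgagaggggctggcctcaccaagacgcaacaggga
The Dpp4 sequence held 1 TATAAA and 1 EBF match, the Pdgfra sequence held 1 C/EBP match, and the Cd34 sequence held none of the 4. The TATAAA of Dpp4 lay near the end of the 250 bases that is farthest from the gene start. EBF proteins and C/EBP proteins are transcription factors of the adipocyte lineage. Among 32851 promoters of the same length, 12.37% held TATAAA, 0.7793% the EBF motif, 9.564% the C/EBP motif and 32.74% the GC box. The GC box occurred upstream of 2 markers, once for Icam1 and 3 times for F3. GC content was 43.6% for Dpp4, 54.4% for Pdgfra and 46.4% for Cd34, beside a median of 52.4% over all promoters. The 3 genes thus had no motif of the 4 in common, and a match of letters is not a measured binding site.

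Cd24a (chr10:43578284-43584265, plus strand) encodes a small GPI-anchored mucin of an early progenitor population. It had 254, 128 and 346 normalized counts in control and 199.7, 569 and 367 in AKO iWAT. By ratio, the highest and lowest samples were farther apart than for the other 9 markers, and the groups overlapped widely. The means of 242 ± 109 and 379 ± 185 (SD, n = 3 each) gave the largest log2 fold change of the 10 markers, 0.63, and also the largest standard error, 0.44 (95% interval -0.38 to 1.64, limma adjusted p = 0.725). Without control sample 2 it was 0.23 and without AKO sample 2 it was 0.27, below Dpp4 (0.69 and 0.64) and Pi16 (0.59 and 0.68) in the same settings, and without AKO sample 1 it was 1.03. Mammary epithelial genes varied across the same samples. The summed level of 8 of them was 474, 14.0 and 1241 normalized counts in control samples 1 to 3 and 142, 1678 and 557 in AKO samples 1 to 3. In control sample 2, where Cd24a was lowest, the defining epithelial genes Epcam, Krt5, Krt8 and Krt14 were at 0, and in AKO sample 2, where Cd24a was highest, the sum was highest. The samples had the same order by both measures, except that control sample 3 and AKO sample 3 exchanged places. Summed B cell and T cell markers were also highest in AKO sample 2 (1236 and 901), with control sample 1 next (969 and 519). The part of epithelial or lymphocyte RNA in the Cd24a values was not tested. Another gene, Gm6212, shares 3.905% of the 50-base stretches of the Cd24a transcript.

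**Figure D2:**
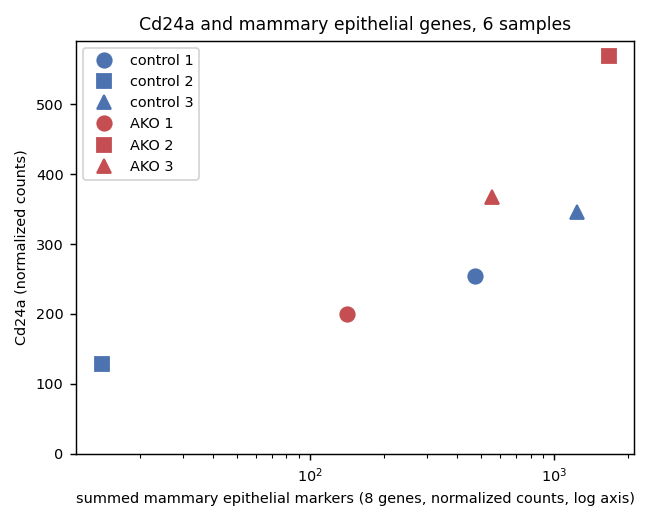
Normalized counts of Cd24a (y axis) against the summed normalized counts of 8 mammary epithelial markers (x axis, log scale) in the 3 control (blue) and 3 AKO (red) samples, with replicates 1, 2 and 3 as circle, square and triangle. Cd24a was lowest (128) where the sum was lowest (14.0) and highest (569) where the sum was highest (1678).

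Of the markers of committed preadipocytes, Icam1 (chr9:21015985-21028817, plus strand) encodes an adhesion molecule that binds integrins of leukocytes. It had 371, 304 and 327 normalized counts in control and 379, 382 and 315 in AKO iWAT, which overlapped. The means of 334 ± 34.0 and 359 ± 37.7 (SD, n = 3 each) differed by 0.10 on the log2 scale (95% interval -0.16 to 0.36, limma adjusted p = 0.845). The antisense gene Gm47079 shares 11.72% of the exonic bases of Icam1, and the study does not state whether reads were counted by strand.

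Dlk1 (chr12:109452823-109463336, plus strand) encodes PREF-1, a transmembrane protein that holds preadipocytes back from differentiation. It was close to the limit of these data, with 19.1, 40.9 and 30.5 normalized counts in control and 39.4, 31.2 and 42.4 in AKO iWAT, from 19 to 44 reads per sample. The groups overlapped, and the log2 fold change of 0.36 had a 95% interval of -0.33 to 1.06 (limma adjusted p = 0.779). It was 0.080 without control sample 1 and 0.61 without control sample 2. Counting error alone is 18.6% of the mean in control and 16.0% in AKO iWAT, and the SD between samples was 36.2% and 15.3%. All other markers had 119 to 6328 reads per sample.

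F3 (chr3:121723537-121735048, plus strand) encodes tissue factor, the starter of the extrinsic coagulation pathway, which marks the adipogenesis-regulatory cells. Its control values were 1257, 1162 and 1142 normalized counts and its AKO values 1064, 1307 and 1172, so that AKO samples held both the lowest and the highest value. The means of 1187 ± 61.7 and 1181 ± 122 (SD, n = 3 each) gave a log2 fold change of -0.01 (95% interval -0.21 to 0.19, limma adjusted p = 0.987). It was 0.0050 with edgeR and TMM factors and -0.0055 with edgeR and RLE factors, and its sign also turned without control sample 1 (0.03) and without AKO sample 1 (0.06).

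**Figure D3:**
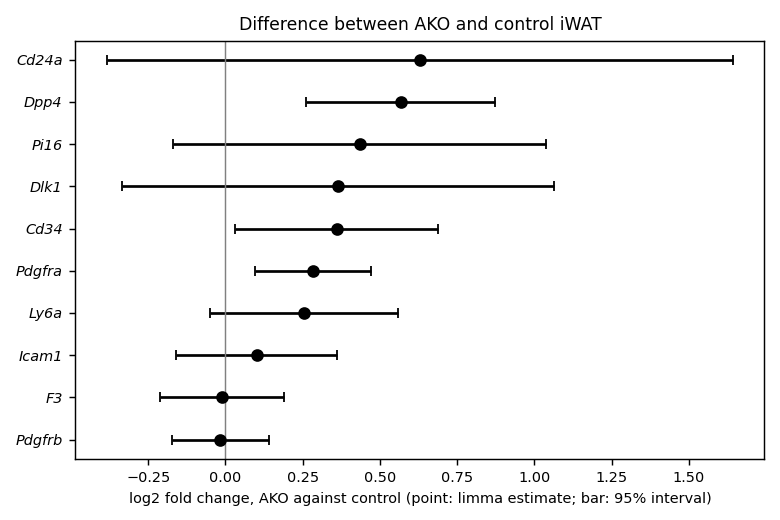
Log2 fold change of each progenitor marker, AKO against control (x axis), with the limma estimate as a point and its 95% interval as a bar. The intervals of Dpp4 (0.26 to 0.87), Pdgfra (0.09 to 0.47) and Cd34 (0.03 to 0.69) lie above 0, and those of the other 7 markers include 0.

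The markers did not vary as a single block across the samples. Control sample 1 was the lowest sample for 5 markers (Cd34, Ly6a, Dpp4, Pi16 and Dlk1), and AKO samples 1 and 3 were each among the 2 highest samples for 7 markers. The median deviation of the 10 markers from their own means was -0.23, -0.04 and -0.02 in control samples 1 to 3 and 0.24, 0.02 and 0.18 in AKO samples 1 to 3 on the log2 scale, so that AKO sample 2 was nearly level with control samples 2 and 3. Over the 6 samples, the log2 values of Cd34 had a Pearson r of 0.93 with Pi16 and 0.93 with Dpp4, those of Pi16 an r of 0.85 with Dpp4, and those of Pdgfra an r of 0.91 with Ly6a. Pdgfra and Pdgfrb had an r of -0.04, Pi16 and F3 an r of -0.76, and Pdgfrb and Cd24a an r of -0.82. These values describe 6 points that share libraries and genotype groups.

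**Figure D4:**
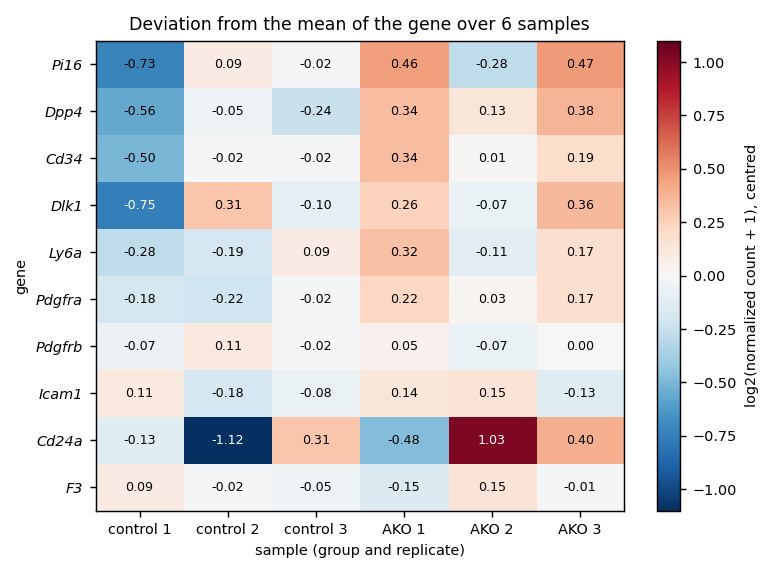
Deviation of each progenitor marker (rows) in each sample (columns) from its mean over the 6 samples, in log2(normalized count + 1), with blue for lower and red for higher. Control 1 is low for Pi16 (-0.73), Dpp4 (-0.56), Cd34 (-0.50) and Dlk1 (-0.75), and AKO 1 and AKO 3 are above the mean for all of these genes, while Cd24a is highest in AKO 2 (1.03).

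Control sample 1 and AKO sample 2 also stood apart in other cell types. B cell markers summed to 969 and 1236 normalized counts in these samples and to 59.0 to 88.2 in the other 4, and T cell markers to 519 and 901 beside 164 to 218. Their part in the marker values was not tested. Without both samples, which was tried after the data were seen, Pdgfra, Cd34, Ly6a, Dpp4 and Pi16 had AKO above control with no overlap (5 of 10 markers, beside 21.7% of all genes with AKO above) and an unadjusted p under 0.05 (beside 9.74% of all genes in either direction), and the log2 fold change was 0.50 for Dpp4 and 0.43 for Pi16. No gene was called among the 13780 tested in these 4 samples. For Ly6a and Pi16, AKO sample 2 was the only AKO sample within the control range, so leaving it out separated their groups by construction. Leaving out AKO sample 2 alone gave the same 5 markers by both measures (beside 12.5% and 8.00% of all genes), and leaving out control sample 1 alone left Pdgfra and Dpp4 with an unadjusted p under 0.05 (beside 9.95% of all genes), as did leaving out AKO sample 3 alone (beside 6.17%). Leaving out AKO sample 1 alone left Pdgfra, Dpp4 and Cd24a (beside 7.23%).

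Within samples, the balance between markers was described by 10 ratios of normalized counts, which were chosen after the values were seen and are given without a test. The ratio of Pdgfrb to Pdgfra was 1.68, 1.95 and 1.56 in control and 1.37, 1.45 and 1.38 in AKO iWAT, lower in every AKO sample. Conversely, the ratio of Dpp4 to F3 was 0.464, 0.716 and 0.637 in control and 1.02, 0.722 and 0.953 in AKO iWAT, higher in every AKO sample but by little in AKO sample 2. The ratio of Dpp4 to Pdgfra overlapped, with 0.512, 0.752 and 0.571 in control and 0.723, 0.718 and 0.767 in AKO iWAT, as did the ratios of Cd34, Ly6a, Pi16, Icam1 and F3 to Pdgfra, of Dpp4 to Icam1 and of Pi16 to Dpp4. The ratio of Dpp4 to Icam1 was 1.57, 2.73 and 2.22 in control and 2.87, 2.47 and 3.54 in AKO iWAT, and that of Pi16 to Dpp4 was 4.55, 5.64 and 5.99 in control and 5.57, 3.83 and 5.46 in AKO iWAT.

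Levels of different genes were compared per kilobase of exon, over all 6 samples. Ly6a was highest with 1704 ± 276 normalized counts per kilobase (SD), above 98.0% of the 15894 genes with a known length, and did not overlap with Pi16 at 719.8 ± 214. Pi16, F3 (469 ± 34.2), Cd34 (443 ± 81.6) and Pdgfrb (366 ± 17.5) followed, and neighbours in this order overlapped. Next and without overlap with Pdgfrb came Dpp4 (139.6 ± 33.1), Pdgfra (129.7 ± 16.2), Cd24a (120.4 ± 60.1) and Icam1 (79.5 ± 7.98), again with overlap between neighbours. Dlk1 was lowest with 5.99 ± 1.56, above 20.9% of genes, where the median gene had 50.6. Levels per kilobase were thus above that of the median gene for 9 of the 10 markers. Some neighbours changed order between the groups. Cd34 was below F3 in control (389 against 470) and above it in AKO iWAT (496 against 467). Dpp4 was below Pdgfra in control (113 against 117) and above it in AKO iWAT (166 against 142). The order also depends on the length used. Over the longest transcript in place of all exons, Cd34 was at 1053, Pi16 at 1147, F3 at 633 and Icam1 at 137, which put Cd34 above F3, and Pdgfra at 190.2 and Cd24a at 171 came above Dpp4 at 167.

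The gene most like Pdgfra across the 6 samples was Wwp1, with a Pearson r of 0.99 on centred log2 values among 10302 genes averaging 100 or more normalized counts. It was followed by Fzd1, Cbx6, Sh3pxd2b and Fkbp14, each with an r of 0.98. Ly6a was the nearest of the markers, with an r of 0.91 and rank 143, and Dpp4 and Cd34 had ranks 475 and 490. With 6 points in common libraries, many genes reach such values.

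Other markers of the progenitor states, listed without the 10 genes, were read in the same fit, and none of them was called by limma. Of 8 further interstitial progenitor markers, 7 had higher and 1 lower values in AKO, with a median log2 fold change of 0.25. One of them, Sema3c, which encodes a secreted semaphorin, had 590.1, 657 and 649 normalized counts in control and 810.5, 671 and 839 in AKO iWAT, with no overlap (log2 fold change 0.29, unadjusted p under 0.05, limma adjusted p = 0.492). Igfbp6, the most abundant, had a log2 fold change of 0.32, Wnt2 of 0.36 and Dact2 of -0.06. Of 6 further markers of committed preadipocytes, 2 had higher and 4 lower values, with a median of -0.06 and a range from -0.15 for Lpl to 0.14 for Apod. Lpl and Pparg of this list are also expressed by mature adipocytes, whose own markers had lower values for 7 of 8 genes, and a difference between the lists of progenitor states was not tested.

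Of 8 further markers of adipogenesis-regulatory cells, 5 had higher and 3 lower values, with a median of 0.03, from -0.23 for Clec11a to 0.63 for Igfbp3, and Gdf10 was at 0.19. Igfbp3, which encodes the main carrier of insulin-like growth factors, had 698, 679 and 648 normalized counts in control and 1019, 1012 and 1096 in AKO iWAT. The groups were far apart, and the difference of 0.63 on the log2 scale (standard error 0.07) had an adjusted p of 0.0651 in limma, 0.0485 in edgeR and 2.9e-07 in DESeq2. F3, the defining surface marker of the same cells, had a log2 fold change of -0.01, as given above.

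Among 12 genes of the stromal matrix and surface, 10 had higher and 2 lower values in AKO, with a median log2 fold change of 0.19. Lum (0.22) and Nt5e (0.43) had an unadjusted p under 0.05 in limma, Gsn was at 0.06 and Eng at -0.18. The summed level of this list was 250013, 240475 and 273784 normalized counts in control and 301877, 231055 and 295616 in AKO samples 1 to 3, so that AKO samples 1 and 3 were highest and AKO sample 2 was lowest. Of 11 transcription regulators of preadipocytes, 6 had higher and 5 lower values, with a median of 0.07. Prrx1, a homeobox factor of mesenchymal cells, had a log2 fold change of 0.35 (unadjusted p under 0.05, limma adjusted p = 0.373). Cebpb, an early activator of adipocyte differentiation that mature fat also expresses, had 1741, 2239 and 1778 normalized counts in control and 1077, 1193 and 1656 in AKO iWAT, with no overlap and AKO below. Its log2 fold change was -0.57 (unadjusted limma p under 0.05, limma adjusted p = 0.414, edgeR adjusted p = 0.443, DESeq2 adjusted p = 0.0354). Ebf1 had a log2 fold change of -0.01 and Gata3 of 0.79 with a standard error of 0.82.

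For the ligands and partners of the marker proteins, 12 genes were tested, of which 10 had higher and 2 lower values, with a median log2 fold change of 0.16, and none was called. The PDGF ligands were at 0.17 (Pdgfa), -0.12 (Pdgfb), 0.16 (Pdgfc) and 0.15 (Pdgfd), and the groups did not overlap for Pdgfb, with AKO below, and Pdgfd, with AKO above. Chains of the integrins that bind ICAM1 were at 0.16 (Itgal), 0.40 (Itgam) and 0.26 (Itgb2, unadjusted p under 0.05, limma adjusted p = 0.539). Tfpi, the inhibitor of tissue factor, was at -0.03, and the coagulation factors F7 and F10, on which tissue factor acts, were below the limit for testing with means of 2.38 to 7.08 normalized counts. Selp was at 0.06, Siglecg at 0.38 with a standard error of 0.90, and Ada, which binds DPP4 in humans, at 0.16. Of the 7 tested genes of the Ly6 family, Ly6a among them, 4 had higher and 3 lower values, with a median of 0.04, from 0.82 for Ly6d (standard error 1.26) to -0.22 for Ly6h, with Ly6e at 0.04 and Gpihbp1 at -0.03. Ly6i and Ly6k were below the limit for testing.

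**Figure D5:**
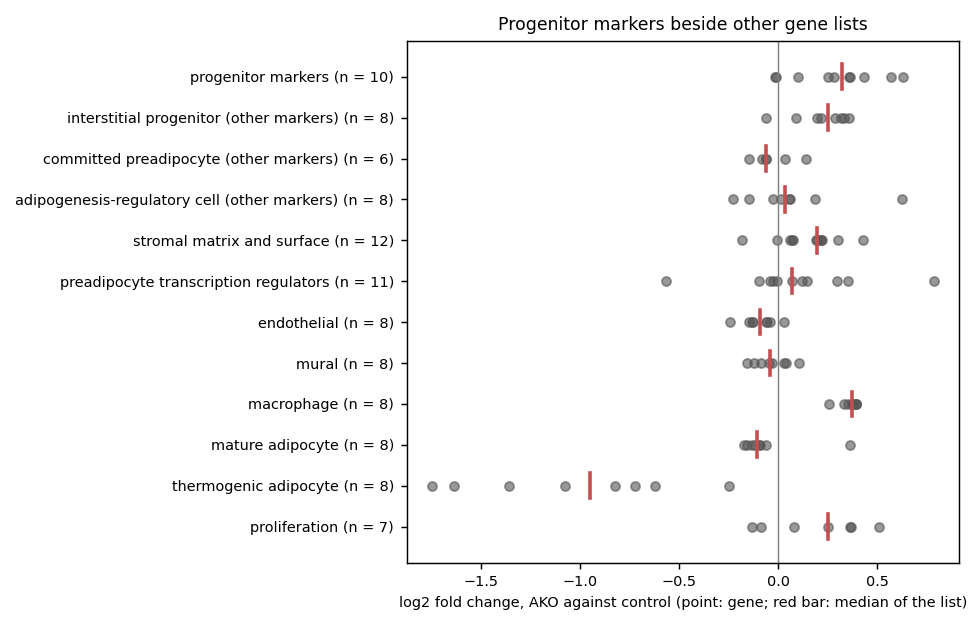
Log2 fold change, AKO against control (x axis), of each tested gene (grey points) in the progenitor markers and in 11 other gene lists, with the list median as a red bar. The median was 0.32 for the progenitor markers, 0.37 for macrophage, -0.11 for mature adipocyte and -0.95 for thermogenic adipocyte genes.

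Beside the progenitor markers, the other cell types of the depot were read as counts of genes. All 8 macrophage markers had higher values in AKO, 4 with an unadjusted p under 0.05, with a median log2 fold change of 0.37. Their summed level was 10072 to 14312 normalized counts in control and 12492 to 17232 in AKO samples, which overlapped, with none at 0 in any sample. Mural markers were split, with 3 higher and 5 lower, and a median of -0.04. Their sum was highest in control sample 2, as was Pdgfrb, but AKO sample 2, with the lowest Pdgfrb, had the next highest mural sum. Genes of proliferation were higher for 5 of 7, with a median of 0.25, and Top2a had no overlap (0.51, limma adjusted p = 0.350). Mature adipocyte genes were lower for 7 of 8, with a median of -0.11, and thermogenic adipocyte genes were lower for 8 of 8, with a median of -0.95, of which Elovl3 was called by limma (adjusted p = 0.0350) and 7 by DESeq2. No gene was called lower by limma with the replicate number as a block. The same held without control sample 1, control sample 3 or any one AKO sample. Skeletal muscle genes summed to 611, 20602 and 11833 normalized counts in control and 15151, 57038 and 87511 in AKO samples, and their median of 3.66 contains control sample 1 with its sum of 611, which is also the lowest sample for 5 progenitor markers. Mammary epithelial genes had positive log2 fold changes for 8 of 8, with a median of 1.22 to which control sample 2, with 4 of these genes at 0, belongs, and the mean of Krt14 was 29.0 normalized counts in control and 28.2 in AKO iWAT. B and T cell genes had medians of 0.16 and 0.36. Schwann cell genes (2 of 6 higher), mesothelial genes (1 of 2) and the single erythroid gene tested, Alas2, gave no call in limma, while DESeq2 called the Schwann cell gene S100b (log2 fold change -0.90). The part of any of these cell types in the marker values was not tested.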

How the data were processed

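The analysis used RNA-Seq of iWAT from control and AKO mice after cold acclimation, with 3 samples per genotype and RNA of 2 mice in each. The authors aligned reads to GRCm38 with STAR, assigned them to genes with featureCounts and compared the genotypes in DESeq2. The deposited signal is the number of reads of a gene after scaling by the DESeq2 size factor of the sample. The deposited log2 fold changes and p-values of the authors were not used. Whether counting used strand, and how the genes were selected, is not given in the sources used here. No sequencing batch is given in the labels, and 0 columns of per-sample values were left without a sample.

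The values were tested with limma (version 3.58.1, R 4.3.3) with a variance trend on log2(value + 1), for genes with a mean of at least 10. P-values were adjusted over all 13855 genes (Benjamini-Hochberg, threshold 0.05). Values were whole multiples of what 1 read is worth (0.960 to 1.08), which gave whole reads for 100% of values within a tolerance of 0.01 reads. As alternatives, edgeR (version 4.0.16) and DESeq2 (version 1.42.0) were run on these reads. The exact permutation test of 3 samples against 3 was 2-sided. The scripts were tested on simulated data. Replicates of a group differed beyond sampling noise, with a chi-square per degree of freedom of 9.86 to 20.1, and p-values measure the spread between these pools of mice. Of the 16538 symbols, 15894 (96.1%) matched GENCODE M21, which gave positions and exon lengths. Promoter sequences are from RefSeq.

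The markers and all gene lists were chosen with earlier results of these data known. Genes named are the 10 markers, Nrg4, the ligands, partners and Ly6 relatives (an item of these lists is not reported here), the 5 genes most like Pdgfra, and from each progenitor list the most abundant gene, the highest and lowest log2 fold change and any gene called by a test. Lists of other cell types are given as counts and sums, and a gene of theirs is named only for a call, a lack of overlap, a value at 0 or as the only gene tested. Sema3c, Lum, Nt5e and Prrx1 were named for an unadjusted p under 0.05 after their values were seen. Alternatives were pseudocounts of 0.1 and 10, other filters, edgeR and DESeq2, other scaling factors, the replicate number as a block, leaving out each sample, and other transcript lengths.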

Additional observations from a re-analysis of the deposited data

How the results depend on the processing

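The signs of 8 markers were kept in every setting, and those of F3 and Pdgfrb, both close to 0, were not. F3 turned to 0.0050 with edgeR and TMM factors, to 0.03 without control replicate 1 and to 0.06 without AKO replicate 1, and Pdgfrb turned to 0.03 without control replicate 2 and 0.02 without AKO replicate 2. Genes called numbered 6 with at least 10 in every sample, 5 with edgeR and RLE factors, 149 with DESeq2, 0 to 3 when 1 sample was left out and 0 without control replicate 1 and AKO replicate 2. DESeq2 called 1 marker, Dpp4 (0.56), and every other setting called 0. Markers with an unadjusted p under 0.05 numbered 2 to 5 when 1 sample was left out, beside 6.17% to 9.95% of all genes. Those with AKO above and no overlap numbered 3 to 5 in these settings, beside 10.5% to 13.8% of all genes, and 6.14% with all 6 samples. Both numbered 5 without control replicate 1 and AKO replicate 2, beside 9.74% and 21.7% of all genes, a setting tried after the data were seen. When 1 sample was left out, log2 fold changes ranged from 0.24 to 0.34 for Pdgfra, 0.20 to 0.44 for Cd34, 0.16 to 0.37 for Ly6a, 0.43 to 0.69 for Dpp4, 0.18 to 0.68 for Pi16, 0.080 to 0.61 for Dlk1, 0.04 to 0.19 for Icam1, 0.23 to 1.03 for Cd24a, -0.053 to 0.032 for Pdgfrb and -0.087 to 0.062 for F3. The cause was not tested. Levels per kilobase over the longest transcript, in place of all exons, were 2150.1 for Ly6a, 1147 for Pi16, 633 for F3, 1053 for Cd34 (1263 over the longest coding transcript), 190.2 for Pdgfra and 137 for Icam1, which puts Cd34 above F3, and above Pi16 over the coding transcript, and Dpp4 below Pdgfra and Cd24a.

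Samples with the same replicate number are pools of different mice, and their deviations had correlations of 0.14, -0.35 and 0.24, so the numbers were not taken to pair them. With the replicate number as a block, 2 genes were called, 2 higher and 0 lower in AKO, so Elovl3 was no longer called. No marker was called in that setting. Counting error limits Dlk1, which had 19 to 44 reads per sample.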
